A study of Drosophila melanogaster with 4 samples.

Results

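Broad elongation domains are the long runs of sequence over which RNA polymerase II phosphorylated at serine 2 (Ser2P) was called enriched in Drosophila Kc167 cells. They were chosen by their width. A domain is an enriched cluster of at least 10000 bp on the chromosome arms 2L, 3L or 3R in the authors' combined list of clusters. There were 331 such domains among 3097 enriched clusters on these 3 arms, which was 10.7%, and among 5566 enriched clusters in the whole list. The other 2766 clusters of the 3 arms are called narrower clusters here.

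Kc167 is an established line of cultured fly cells. Per the labels it derives from the late embryonic stage, is female and has the genotype se/e, and no treatment is named. Chromatin fixed with formaldehyde and sheared by sonication was precipitated with the Ser2P antibody ab5095 in 2 ChIP libraries, and 2 input libraries were made without precipitation. All groups therefore share the line, its genotype and its growth. A list of clusters was deposited for each ChIP library and one for both together (the combined set). The inputs are not analysed here, and whether the replicates are separate cultures is not stated, so their spread may be technical.

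Serine 2 lies in the repeated tail of the largest subunit of RNA polymerase II. It is phosphorylated by kinases such as P-TEFb once the enzyme leaves its pause near the promoter, and the mark typically builds up along gene bodies toward their 3′ ends. A Ser2P cluster is therefore usually read as sequence under productive elongation, and a long cluster may hold 1 long gene or several neighbours. Which genes lie under the domains was not analysed here, because the positions are on FlyBase release 5 and the gene table at hand describes release 6.

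Because width chose the domains, and score, pieces and neighbours come from the same calls, what follows is a description without tests. Differences are set beside the spread of the replicate lists (mean ± SD, n = 2). Over 2 replicates an exact sign-flip test cannot give a two-sided p below 0.5. Read counts are not part of the lists, so the depth behind a cluster is unknown.

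The domains covered 5.07 Mb, which was 6.72% of the 3 arms and 34.7% of all bases in clusters there. On 3R there were 133 domains, or 4.77 per Mb, and they covered 7.77% of the arm. On 3L there were 108, or 4.40 per Mb, over 6.45% of the arm. On 2L there were 90, or 3.91 per Mb, over 5.75% of the arm. The same order of arms appeared in each replicate's own list of clusters of at least 10 kb. In those lists the long clusters covered 6.00% ± 0.32 of 3R, 4.72% ± 0.53 of 3L and 4.06% ± 0.18 of 2L (SD, n = 2). 3R lay above the other arms by more than this spread, whereas 3L and 2L differed by little more than the SD of 3L.

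Each replicate alone listed fewer long clusters than the combined set. Replicate 1 held 247 and replicate 2 held 272, a mean of 259.5 ± 17.7 (SD, n = 2). They took 28.7% ± 1.44 of the covered bases of a replicate. On 3L the replicates differed most, with 76 and 91 long clusters.

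The domains ran from 10024 to 46233 bp, with a median of 13643 bp and a middle range from 11275 to 17725.5 bp. There were 119 domains of 10 to 12 kb, 75 of 12 to 15 kb, 83 of 15 to 20 kb and 54 of 20 kb or more. The median width was 14629 bp on 3R, 13337 bp on 3L and 12578.5 bp on 2L.

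The width limit cut through a continuous range. The 3 domains just above it were 10024 bp on 2L from 13826699 to 13836722, 10037 bp on 3R from 4493970 to 4504006, and 10050 bp on 2L from 2573928 to 2583977. Their combined scores were 1.71, 1.72 and 0.98. The 3 clusters just below it were 9990 bp on 3L from 22937396 to 22947385, 9979 bp on 2L from 6556876 to 6566854, and 9977 bp on 3L from 17629176 to 17639152. Their scores were 1.65, 1.17 and 1.34.

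The score is the authors' own value per cluster, positive in enriched regions, on a scale not given in the sources used here. It is used to describe and rank clusters. The median score of the domains was 1.67, with a middle range from 1.32 to 1.96 and extremes of 0.59 and 3.32. Narrower clusters had a median of 0.89. In the replicate lists the medians were 1.76 ± 0.01 for long and 1.03 ± 0.01 for narrower clusters (SD, n = 2). Of the domains, 308 (93.1%) scored 1 or more, against 1226 (44.3%) of the narrower clusters.

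Score climbed with width among narrower clusters and hardly at all among domains. The median score was 0.31 under 2 kb, 0.99 from 2 to 5 kb and 1.29 from 5 to 10 kb. It was then 1.65, 1.63, 1.70 and 1.70 in the 4 width classes of domains, from 10 to 12 kb up to 20 kb or more. The rise did not stop at the limit itself. In steps of 1 kb the median was 1.33 at 8 to 9 kb and 1.42 at 9 to 10 kb. It was 1.64 at 10 to 11 kb and 1.74 at 11 to 12 kb. Across the 331 domains the Spearman correlation of width and score was 0.05, and across the 2766 narrower clusters it was 0.59. Clusters of at least 10 kb in the replicate lists gave 0.12 over 247 clusters and 0.10 over 272. These points share libraries and a single calling procedure.

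**Figure D1:**
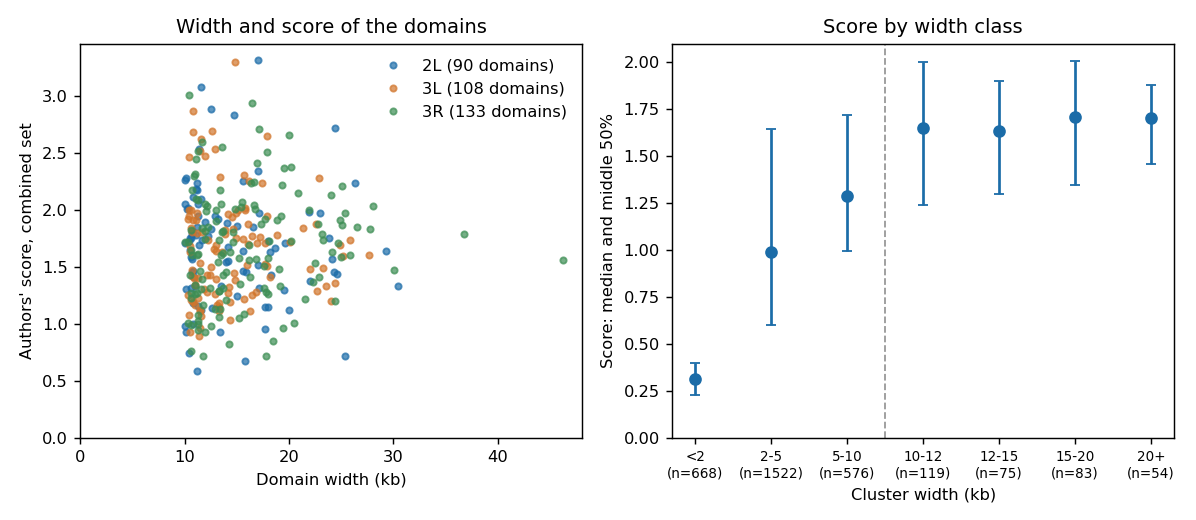
The left panel plots the authors' score in the combined set against width in kb for the 331 domains, coloured by arm. The right panel gives the median score and the middle 50% of clusters (bars) by width class, with a dashed line at 10 kb; the median rises from 0.31 to 1.29 below 10 kb and lies between 1.63 and 1.70 above it.

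The highest score of each arm belonged to a narrower cluster, with 3.51 on 2L, 3.65 on 3L and 3.90 on 3R. Scores of 3 or more were given to 4 domains (1.21%) and to 43 narrower clusters (1.55%), and 16 narrower clusters scored above the highest domain. That domain lay on 2L from 2744548 to 2761586, was 17039 bp wide and scored 3.32, with 3.33 in replicate 1 and 3.38 in replicate 2, where it was 1 cluster each. The highest on 3L, from 14741403 to 14756236, was 14834 bp wide and scored 3.30. Replicate 1 listed it as 2 clusters with scores of 3.41 and 0.48, and replicate 2 as 1 cluster with 3.34. The highest on 3R, from 8327026 to 8337404, was 10379 bp wide and scored 3.01 as 1 cluster in both replicates.

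Low scores were rare among the domains. A score below 0.75 was given to 6, and only 1 of them was a single cluster in both replicates. This one had the lowest score of all domains, 0.59, and lay on 2L from 18637746 to 18648915. Lower scores than this were given to 970 of the 2766 narrower clusters (35.1%). The lowest domain on 3R, from 20061664 to 20079455, was 17792 bp wide with a score of 0.72. It was in 3 pieces in both replicates, which covered 79.3% of it in replicate 1 and 63.6% in replicate 2, the smallest covered share of any domain in that replicate. The lowest on 3L, from 15549240 to 15560580, scored 0.89 and was in 2 pieces in both.

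The widest domain lay on 3R from 1088814 to 1135046, spanned 46233 bp and scored 1.56. Replicate 2 listed 1 cluster of 46207 bp. Replicate 1 listed a cluster of 6585 bp with a score of 1.57 beside one of 39265 bp with a score of 1.51. The pieces thus differed little in score.

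The next on 3R, from 7413796 to 7450533, was 36738 bp wide and scored 1.79. It was a single cluster in both replicates, of 36099 and 36354 bp. The third on 3R, from 5159853 to 5189941, was 30089 bp wide and fell into 3 pieces in both replicates, with breaks in like places. Its long piece scored 1.55 in replicate 1 and 1.62 in replicate 2, and the lowest of its pieces 0.47 and 0.56.

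On 2L the widest domain ran from 21153191 to 21183621, which is 30431 bp, and scored 1.33. It was 1 cluster of 30344 bp in replicate 2 and 3 clusters in replicate 1, of 19124, 3852 and 6607 bp. The next, from 2150623 to 2179906, was 29284 bp wide and had 3 pieces in each replicate. A middle piece of low score, 0.78 in replicate 1 and 0.77 in replicate 2, lay between pieces of 1.68 and 2.12 in replicate 1 and of 1.65 and 2.05 in replicate 2. The third, from 8414082 to 8440392, was 26311 bp wide and scored 2.24. It was 1 cluster in replicate 2 and, in replicate 1, clusters of 20629 and 4035 bp.

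On 3L the widest domain, from 16131343 to 16159018, spanned 27676 bp, with 3 pieces in replicate 1 and 2 in replicate 2, which ran unbroken across the first break of replicate 1. Its long piece was 20861 bp in replicate 1 and 21260 bp in replicate 2. The next, from 4101525 to 4127401, was 25877 bp wide. Both replicates divided it into a piece that scored 1.42 and 1.38 and a piece that scored 1.97 in each. The third, from 3423916 to 3449105, was 25190 bp wide and was 1 cluster in both, scoring 1.62 and 1.60.

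**Figure D2:**
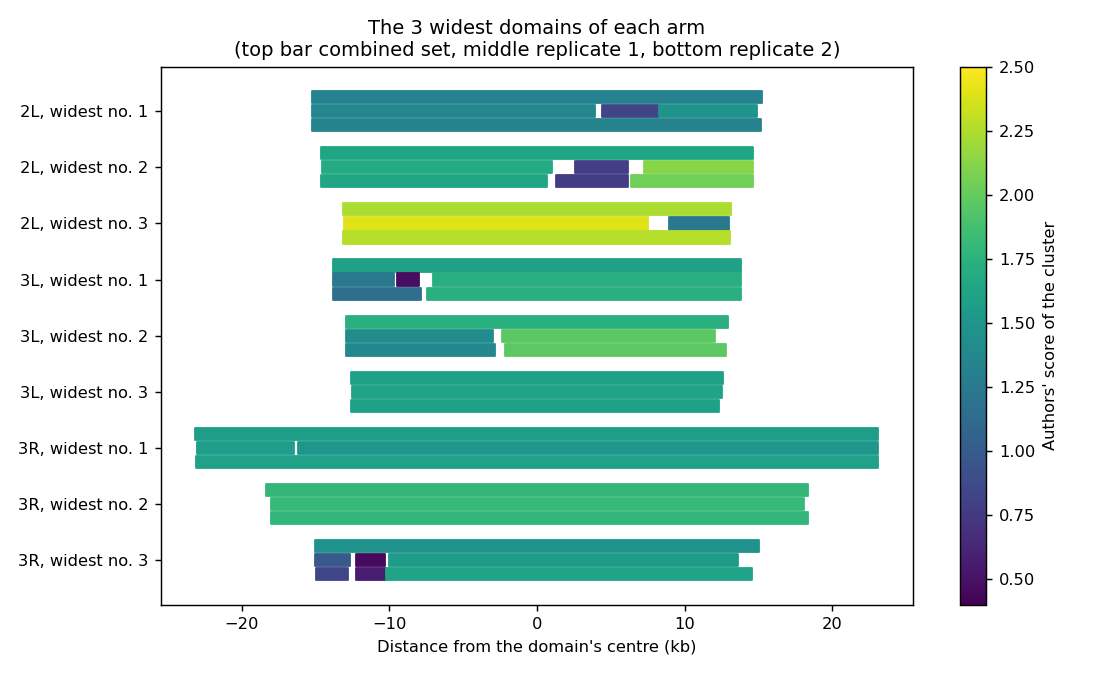
Each of the 9 domains (3 widest per arm) is drawn to scale by distance from its centre in kb, with the combined cluster on top, the clusters of replicate 1 in the middle and those of replicate 2 below, coloured by the authors' score. Only 2 of the 9 are 1 cluster in both replicates, and 4 are broken in both; in 3 of these the number of pieces is the same in both replicates, and the widest domain of 3L has 3 pieces in replicate 1 and 2 in replicate 2.

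All 331 domains overlapped at least 1 cluster of each replicate by at least 1 bp. The same held for 82.0% of the 3097 clusters of the 3 arms, and for all 576 narrower clusters of 5 to 10 kb, so full support began below the width limit. In the other direction, 247 of 247 long clusters of replicate 1 and 270 of 272 of replicate 2 overlapped a domain.

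Support by overlap did not mean an unbroken cluster. Of the domains, 183 of 331 (55.3%) were 1 cluster in both replicates, against 71.6% of all clusters on these arms. The latter share counts clusters missing from a replicate as not unbroken. Among the 2209 narrower clusters found in both replicates, 92.1% were 1 cluster in each. The share did not drop at the width limit itself. It was 68.7% at 8 to 9 kb and 55.6% at 9 to 10 kb. Above the limit it was 68.8% at 10 to 11 kb and 60.0% at 11 to 12 kb. Of the 331 domains, replicate 1 alone split 48, replicate 2 alone split 22, and both split 78. Of the 148 domains split in either replicate, 52.7% were therefore split in both. The number of pieces was the same in both replicates for 235 domains (71.0%), greater in replicate 1 for 67 and greater in replicate 2 for 29. No domain had more than 4 pieces in a replicate.

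The gaps within domains were short. Replicate 1 had 168 breaks inside domains with a median length of 360.5 bp, and replicate 2 had 126 with a median of 362 bp. In replicate 1, 61.3% of breaks were under 500 bp and the longest was 3742 bp. In replicate 2, 57.1% were under 500 bp and the longest was 4138 bp. Together the breaks took 1.98% of the domain bases in replicate 1 and 1.68% in replicate 2. A break of replicate 1 had a partner in replicate 2 within 200 bp in 48.2% of cases, and a break of replicate 2 had one in replicate 1 in 63.5%.

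Each domain was mostly covered. The covered share had a median of 97.2% in replicate 1 and 98.3% in replicate 2, with minima of 66.9% and 63.6%. Its mean was 94.7% and 95.9%. Uncovered sequence lay not only in breaks but also at the ends of domains. The domain on 2L from 2573928 to 2583977, for one, was 1 cluster in replicate 1 and 75.6% covered. At least 90% was covered in both replicates in 263 domains (79.5%) and at least 80% in 310 (93.7%).

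Wider domains were more often split, but had about as many breaks per length. The share listed as 1 cluster fell from 69.7% at 10 to 12 kb to 40.7% at 20 kb or more in replicate 1, and from 74.8% to 55.6% in replicate 2. Breaks per 10 kb stayed between 0.28 and 0.35 in replicate 1 and between 0.21 and 0.28 in replicate 2 over the 4 classes of domains. Narrower clusters of 5 to 10 kb were close to these rates, with 0.27 and 0.22, and clusters of 2 to 5 kb were far below, with 0.043 and 0.038.

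**Figure D3:**
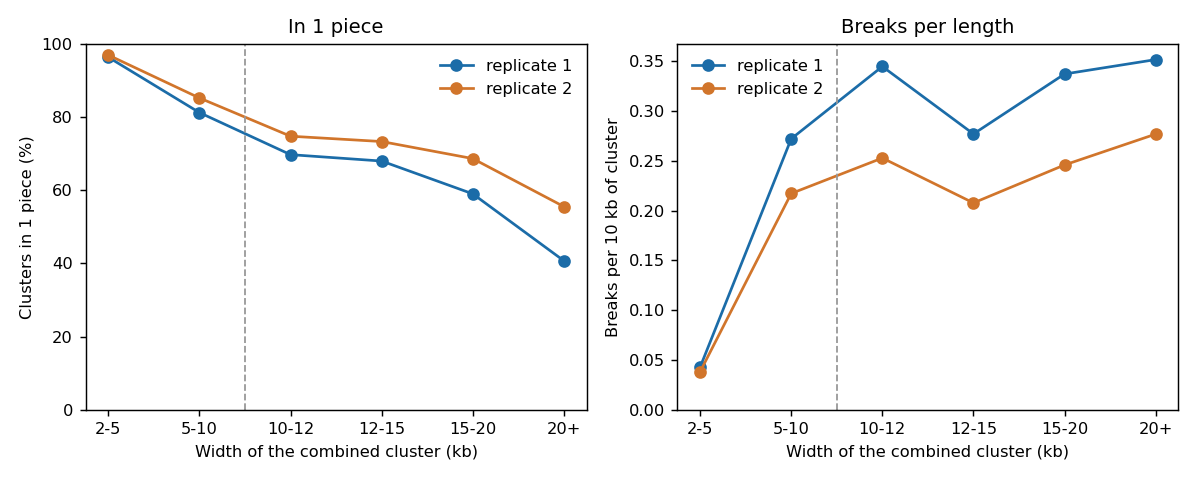
The share of combined clusters that were 1 cluster in a replicate (left, in percent) and the breaks per 10 kb of cluster (right) are plotted by width class in kb, 1 line per replicate, with a dashed line at 10 kb. From 2 to 5 kb upward the share in 1 piece falls from 96.4% and 97.0% to 40.7% and 55.6%, whereas breaks per length change little above 5 kb.

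Split domains were wider and scored lower than unsplit ones. In replicate 1 the 126 split domains had medians of 15636.5 bp and, for the combined score, 1.46, against 13125 bp and 1.74 for the rest. In replicate 2 the 100 split domains had medians of 15014.5 bp and 1.41, against 13425 bp and 1.74. Pieces of a domain could differ much in score. The range of piece scores within a split domain had a median of 0.85 in replicate 1 and 0.75 in replicate 2, and a maximum of 3.12 and 2.13.

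The domain in most pieces lay on 3R from 13495197 to 13519633 and was 24437 bp wide, with a score of 1.20. Replicate 1 listed 4 clusters in it with scores of 0.75, 1.72, 0.81 and 0.78, and replicate 2 listed 3 with scores of 1.45, 0.94 and 0.68. Behind it 17 domains tied at 6 pieces over both replicates, and the 2 widest of them are the third domain of 3R by width and the second of 2L, described above.

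Not every domain had a cluster of domain size in a replicate. A piece of at least 10 kb was present in both replicates in 229 domains (69.2%), in replicate 1 alone in 16, in replicate 2 alone in 37 and in neither in 49 (14.8%). These 49 were 10024 to 18460 bp wide, with a median of 11259 bp, so they lay mostly near the limit. Among them, 9 were 1 cluster in both replicates and fell short of the limit in each.

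Both replicates placed most outer edges of the domains close together, but less closely than those of narrower clusters. Over 662 edges the offset between replicates had a median of 67.5 bp, and 60.9% of edges were within 100 bp. For narrower clusters found in both replicates the median was 42 bp, and 72.0% of edges were within 100 bp. The offset exceeded 1000 bp at 37 domain edges (5.59%) and at 120 narrower edges (2.72%).

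The replicates also gave unsplit domains nearly the same score. For the 183 domains that were 1 cluster in both, the score of replicate 2 minus that of replicate 1 had a mean of 0.004 and an SD of 0.067. The greatest difference was 0.24. Over 2034 narrower clusters matched in the same way the SD was 0.14.

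As a whole, domains lay closer to other clusters than narrower clusters did. The median gap to the nearest cluster on the arm was 1339 bp for domains and 2279 bp for narrower clusters. The 54 domains of 20 kb or more had a median of 2049.5 bp. This was below that of all narrower clusters but above the 1708 bp of clusters of 5 to 10 kb. A neighbour less than 1 kb away was found for 144 domains (43.5%) and for 32.8% of narrower clusters. Conversely, 28 domains (8.46%) had no cluster within 10 kb, against 18.9% of narrower clusters. In the replicates' own lists the median gap of long clusters minus that of narrower ones was -1107 bp in replicate 1 and -1026.5 bp in replicate 2, and it was negative on each of the 3 arms in both.

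The sequence around domains was also more covered. Within 50 kb on either side, other clusters covered a mean of 29.8% around domains and 25.6% around narrower clusters. The difference was 4.26 percentage points in the combined set and 4.26 ± 0.04 over the replicates (SD, n = 2). By arm it was 5.12 on 2L, 4.01 on 3L and 3.87 on 3R in the combined set. Over the replicates it was 5.68 ± 0.89 on 2L, 3.80 ± 0.24 on 3L and 3.63 ± 0.63 on 3R (SD, n = 2). The pooled spread of 0.04 was smaller than that of any arm, because 2L and 3R differed between the replicates in opposite directions.

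This difference was near the edges. In the replicates it was 6.28 ± 0.35 points over the first 5 kb, 8.65 ± 0.36 from 5 to 10 kb and 6.38 ± 0.17 from 10 to 20 kb. From 20 to 50 kb it was 2.48 ± 0.23, from 50 to 100 kb 1.61 ± 0.40, and from 100 to 200 kb 0.17 ± 0.26, where it was within the spread between the replicates.

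**Figure D4:**
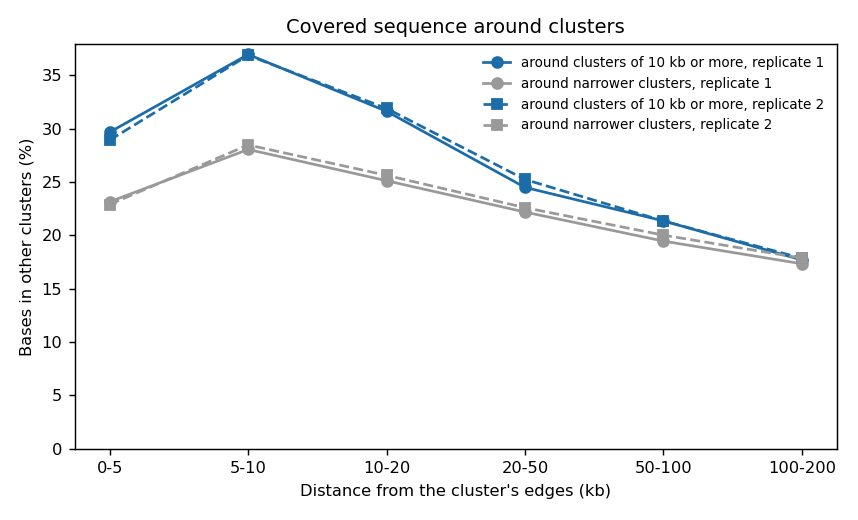
The percentage of bases that lie in other clusters is plotted against distance from a cluster's edges in kb, around clusters of 10 kb or more and around narrower clusters, with a line for each replicate's list. The lines are farthest apart from 5 to 10 kb, by 8.65 points on average over the replicates, and differ by 0.17 points at 100 to 200 kb.

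The covered share of the flanks showed no jump at 10 kb. This share was 24.8% for clusters under 2 kb, 25.0% from 2 to 5 kb and 27.9% from 5 to 10 kb. It was 30.0%, 27.8%, 31.6% and 29.5% in the 4 classes of domains. On either side of the limit it was 27.3% for the 72 clusters of 9 to 10 kb and 28.4% for the 64 of 10 to 11 kb. The median gap to the nearest cluster did fall there, from 2011 bp at 9 to 10 kb to 1363 bp at 10 to 11 kb and 697 bp at 11 to 12 kb, after 1539 bp at 8 to 9 kb.

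The clusters next to domains scored much like those next to narrower clusters, with medians of 1.00 and 0.99. They were somewhat wider, with medians of 3370.5 and 2911 bp.

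A few domains stood alone. Of the 331, 6 had no other cluster within 50 kb, 3 on 3L and 3 on 3R. Narrower clusters were not counted at this distance. Among the 6, 4 were 1 cluster in both replicates, against 55.3% of all domains. The most isolated, named after its values were seen, lay on 3R from 1824358 to 1835298. It was 10941 bp wide with a score of 2.30, and the nearest cluster of any width was 135329 bp away.

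Whether domains follow each other along an arm depended on the list and the arm. The next cluster along the arm was a domain for 46 of 331 domains (13.9%) and for 285 of 2763 narrower clusters (10.3%). The difference was 8.92 percentage points on 2L, 4.34 on 3R and -2.09 on 3L. In the replicates' own lists the difference over the 3 arms was only 0.98 and 1.87 points, a mean of 1.43 ± 0.63 (SD, n = 2). On 3L it was -2.51 in replicate 1 and 0.84 in replicate 2. With a limit of 12 kb in place of 10 kb this difference was, in the combined set, -0.27 points.

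Spacing between neighbouring domains was uneven. Over 328 spacings the median was 122 kb, with a middle range from 25.2 to 305 kb. The shortest was 2 bp and the longest 1830.5 kb. At most 10 kb separated 49 pairs, and 500 kb or more separated 33. The coefficient of variation was 1.28 over all spacings, 1.44 on 2L, 1.20 on 3L and 1.16 on 3R. No coefficient for narrower clusters is set beside these values.

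When domains at most 10 kb apart were joined, 92 of 331 (27.8%) fell into 43 groups, 37 of 2 domains and 6 of 3. For comparison, 507 of the 2766 narrower clusters (18.3%) lay within 10 kb of a domain. The share in groups was 34.6% on 3R, 30.0% on 2L and 17.6% on 3L. In the replicates' own lists it was 21.8% ± 0.43 (SD, n = 2).

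The 6 groups of 3 tie in number, and the 3 with most domain bases are described. The first lay on 3R from 19817545 to 19889970, a span of 72.4 kb of which 90.9% was domain. Its domains were 17967, 25386 and 22509 bp wide and scored 1.26, 1.97 and 1.54. The second lay on 3L from 16102832 to 16159018, spanned 56.2 kb and was 95.8% domain. It ended in the widest domain of that arm, after domains of 12905 and 13246 bp that scored 1.26 and 1.15. The third lay on 2L from 18616203 to 18664674, spanned 48.5 kb and was 92.1% domain.

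The group on 2L was the weakest of these. Its domains scored 1.14, 0.59 and 0.67, the second being the lowest-scoring domain of all. Only 2 bp separated the second from the third, which was in 3 pieces in replicate 1 and 2 in replicate 2, with 66.9% and 85.1% covered.

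Such close pairs were listed as separate domains in the combined set. The breaks inside domains described above are gaps in the replicate lists, so their lengths are not compared with these gaps. In all, 13 pairs of domains were less than 1 kb apart, with a median gap of 194 bp. Scores within these pairs differed by 0.08 to 1.72, with a median of 0.39. The other 583 pairs of neighbouring clusters less than 1 kb apart differed by a median of 0.62.

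Long stretches held no domain. The longest, on 2L from 13907453 to 15737965, measured 1830.5 kb and held 31 narrower clusters that covered 5.69% of it. The next, also on 2L, ran from 16833359 to 18616202, measured 1782.8 kb and held 41 narrower clusters over 6.75%. It ended at the 2L group of 3. The third, on 3L from 21275241 to 22856239, measured 1581.0 kb and held 82 narrower clusters over 17.8%, and it was the best covered of the 3. For comparison, clusters covered 19.4% of the 3 arms, but this includes domains, which alone covered 6.72%. Without domains the share of the arms lies below the 17.8% of the third stretch and above the shares of the others.

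On 3R, a region chosen after its values were seen held a single pair of domains in 2.09 Mb, from 1835299 to 3929990, with 51 narrower clusters. The stretches on either side of the pair measured 1060.5 and 1006.6 kb. The domain farthest from any other on each arm was 13155 bp on 2L from 11000255 to 11013409, at 566 kb, 10538 bp on 3L from 23678188 to 23688725, at 534 kb, and 13279 bp on 3R from 9943759 to 9957037, at 449 kb.

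With the arms pooled, domains were scarcest next to the centromere. The centromere lies at the high-coordinate end of 2L and 3L and at the low-coordinate end of 3R. When each arm was cut into 10 equal parts, 19 of 349 clusters were domains in the part nearest to it (5.44%), and 46 of 318 in the part nearest to the telomere (14.5%). In the parts between them the share ran from 8.03% to 12.7%. In the replicates' own lists the part by the centromere held 6.05% and 5.80%, and that by the telomere 11.8% and 13.6%. Replicate 1 had a lower share, 5.50%, in the sixth from the centromere.

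On each arm the share was lower at the centromere end than at the other. It was 4.58% against 18.2% on 2L, 3.96% against 11.6% on 3L and 7.69% against 14.0% on 3R. Counted per Mb, the part by the centromere was not the poorest on 2L, where it held 2.61 domains per Mb and the fourth part from the centromere 1.30. On 3R it tied with the sixth part at 3.23 per Mb. Narrower clusters were not scarce there, with 43.7 per Mb by the centromere and 36.0 per Mb by the telomere. Scores in the part by the centromere, over all clusters, had medians of 1.08 on 2L, 0.49 on 3L and 0.78 on 3R.

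**Figure D5:**
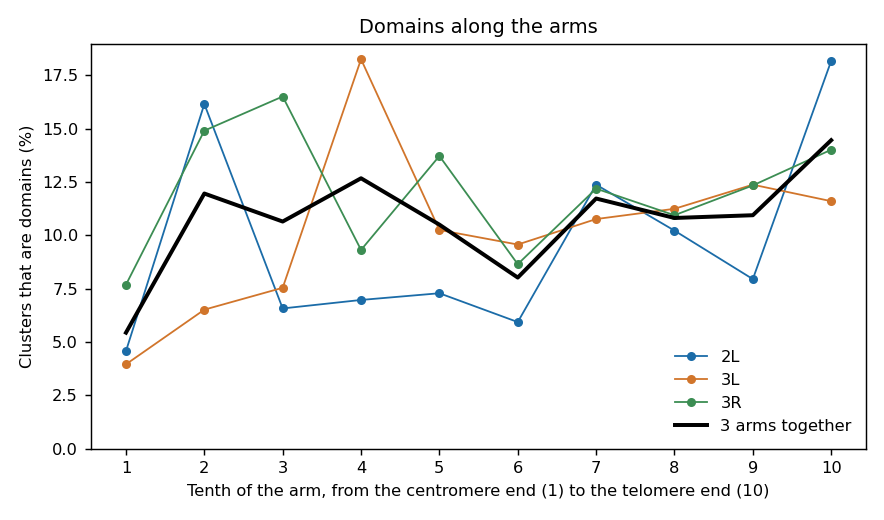
The percentage of clusters that are domains is plotted for 10 equal parts of an arm, from the centromere end (1) to the telomere end (10), for each of the 3 arms and for the arms together (black). The black line starts at 5.44% and ends at 14.5%.

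In 74 full windows of 1 Mb the number of domains ran from 0 to 12, with a median of 4, and 2 windows, both on 2L, held none. The richest window was on 3R from 19000001 to 20000000 with 12 domains, followed by the first Mb of 2L with 11. The variance of these counts was 1.57 times their mean of 4.39. For narrower clusters in the same windows it was 2.82 times their mean of 36.8. Such a ratio depends on the mean, and the means differ widely. These values therefore do not show which kind of cluster was more unevenly spread. The Spearman correlation over windows was 0.22 between domains and narrower clusters, and 0.93 between the long clusters of replicate 1 and those of replicate 2. Windows of an arm and lists from the same regions are not independent, so these are descriptions.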

How the data were processed

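Ser2P ChIP-seq was done in 2 ChIP and 2 input libraries of Kc167 cells. Per the submitters' processing notes, the aligner was Bowtie 0.12.7. The authors deposited 3 lists of regions with their borders, and the score of each region is used as deposited. Per the file headers, positions refer to FlyBase release 5. Not given in the sources used here are the caller, its threshold, the use of the input, the scale of the score and the combination of replicates. Depth is unknown.

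Enriched clusters of 2L, 3L and 3R were selected on width. Pieces are replicate clusters that overlap a domain by at least 1 bp, and gaps are measured edge to edge. Interval functions were tested on simulated data. Python 3.11.15, numpy 2.4.6, pandas 2.3.3, scipy 1.17.1 and matplotlib 3.10.9 were used. The named regions are, per arm, the 3 widest domains, the highest- and lowest-scoring and the one farthest from another, and, over all, the 3 nearest on each side of the limit, the 3 in most pieces, the 3 largest groups (ties broken by domain bases) and the 3 longest stretches without a domain. The members and lists were chosen with earlier results of these data known. The alternatives varied the width limit, merging, score and overlap filters, flank length and replicate used.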

Additional observations from a re-analysis of the deposited data

Results flagged for a closer look

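The deposited lists also name regions of depletion, which no comparison above used. The combined set lists 48 on 2L, 3L and 3R, whereas the lists of replicates 1 and 2 hold 6 and 9. None of the 48 overlapped a domain, and neither did any of the 2766 narrower clusters of that list. The caller is not known, so whether regions of a list could overlap at all is not known either. Nothing is concluded from the lack of overlap. Of the 48, 1 lay within 10 kb of a domain, at 2898 bp. Their median distance to the nearest domain was 91.6 kb. Of the narrower clusters, 18.3% lay within 10 kb of a domain. No control list was at hand for these regions, and their scores were not used.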

How the results depend on the processing

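Of 47 values of 7 results under the alternatives run, 16 counted as the same as the main value, 30 moved and 1 reversed. A value counted as the same within the SD between the replicates or, for the number of domains, within a fixed ratio. That ratio is a looser margin, under which 470 and 247 counted as the same as 331. It gave 6 of the 16 values counted as the same. Only differences between domains and narrower clusters could change sign, because a count or a plain share cannot be negative. The share of clusters followed by a domain, domains minus narrower clusters, was 3.58 points and reversed to -0.27 with a 12 kb limit; the cause was not tested. Leaving out a replicate means using the other replicate's list alone. It gave 0.98 to 1.87 points. The number of domains was 470 at 8 kb, 212 at 12 kb, 423 after merging clusters less than 1 kb apart, and 247 to 272 with a replicate left out. The share of covered bases was 43.2% at 8 kb, 25.8% at 12 kb, 48.3% with clusters less than 1 kb apart merged, 36.8% for clusters found in both replicates, 46.4% for the better-scoring 50%, and 27.7% to 29.8% with a replicate left out. The share of domains in 1 cluster was 61.9% to 69.8% with a replicate left out, since pieces were then counted in a single replicate. The gap difference was -767.5 bp at 8 kb, -784.5 at 12 kb, -1002 after merging, -1329 for clusters in both replicates, -2658 for the better-scoring 50%, and -1107 to -1026.5 with a replicate left out. The flank difference was 3.82 points at 8 kb, 4.00 at 12 kb, 3.61 after merging, 4.49 for clusters in both, 2.98 for the better-scoring 50%, 7.21 with flanks of 20 kb, and 4.23 to 4.28 with a replicate left out. The score difference was 0.73 at 8 kb, 0.75 at 12 kb, 0.61 for clusters in both, and 0.71 to 0.74 with a replicate left out. No paired analysis was possible because the ChIP and input libraries share replicate numbers but the inputs had no list here. With the depth unknown, no counting error could be given, and a short gap inside a domain cannot be told from a stretch with few reads.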
